A study of Mus musculus with 9 samples.

Results

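PRDM16, EBF2 and ZFP516 are transcription factors that set or hold the brown adipocyte fate. Binding of peroxisome proliferator-activated receptor gamma (PPARγ) at the genes encoding them was followed across the day by chromatin immunoprecipitation (ChIP)-sequencing, in which an antibody recovers the DNA that a protein occupies. The loci were taken as fixed windows of mm10 (GRCm38): Prdm16 at 154.3 to 154.66 Mb of chromosome 4, Ebf2 at 67.2 to 67.45 Mb of chromosome 14 and Zfp516 at 82.88 to 83.02 Mb of chromosome 18. Of the 66066 PPARγ peaks in the count table, 83 had their midpoint in a window, 47 at Prdm16, 32 at Ebf2 and 4 at Zfp516. The tissue was interscapular brown adipose tissue (iBAT) of chow-fed male C57BL/6J mice, 10 weeks old, collected at zeitgeber times (ZT) 0, 3, 6, 9, 12, 15, 18 and 21, where lights went on at ZT0 and off at ZT12. Each time point was 1 library from a single pool, of 8 mice according to the labels, and no genotype or treatment was compared. The spread between mice was not measured. The 8 libraries held 29572225 to 34264812 reads in peaks. Because no time point was repeated, no 2 time points could be tested against each other, and intervals given below cover counting error only. For each ratio, the interval was taken on the highest and lowest counts of a peak, a pair picked for being extreme. Such an interval leans away from no change, lacks its nominal coverage and does not show by itself that binding changed.

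PPARγ is the nuclear receptor required to form every adipocyte, white or brown, and binds DNA with a retinoid X receptor partner at a pair of repeated short elements called DR1. PRDM16 is a zinc-finger coregulator that switches progenitors from a muscle to a brown fat programme and holds that programme in mature cells. EBF2 marks committed brown precursors and brings PPARγ to brown-selective sites, while the zinc-finger protein ZFP516 is induced by cold and activates the Ucp1 promoter together with PRDM16.

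All 8 adipocyte genes looked up, among them Ucp1, Cidea and Adipoq, had PPARγ peaks nearest to their start site, 44 in total. The macrophage genes Adgre1 and Cd68 and the muscle genes Myod1 and Ckm had 0, whereas Ptprc and Acta1 had 1 peak each, and the endothelial genes Cdh5 and Pecam1 had 9 and 5. A binding site of PPARγ is no measure of how much of a cell type was present, and the share of all genes with a peak was not computed.

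Binding at Prdm16 and Ebf2 was dense, and Zfp516 carried few sites. Prdm16 had 13.1 peaks per 100 kb of window, Ebf2 12.8 and Zfp516 2.86, beside 2.42 per 100 kb over the assembled chromosomes. The genes lie on opposite strands: in the longest curated transcript, Prdm16 (17 exons, 321 kb) is read from the minus strand and starts at position 154636873, and Ebf2 (17 exons, 198 kb) and Zfp516 (6 exons, 94.4 kb) are read from the plus strand and start at 67233292 and 82910879. Nearly all peaks at Prdm16 were intronic. Intron 1 held 20, intron 2 held 12, intron 3 held 11, introns 4 and 12 held 1 each, and 2 lay upstream. At Ebf2, 20 of the 32 peaks lay in intron 7, 3 in intron 8, 1 each in introns 4, 6, 11 and 15, 1 on exon 1 and 4 upstream. The Zfp516 peaks lay upstream (1), in intron 1 (1) and in intron 2 (2).

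The peaks at Prdm16 and Ebf2 were wide in the median, while their summit height was not measured. Median width was 1424 bases at Prdm16, 1864 at Ebf2 and 774.5 at Zfp516, compared with 812 bases over all peaks. The median of the mean normalized count (reads per peak scaled by library size, averaged over the 8 libraries) was 379 at Prdm16, 461 at Ebf2 and 387 at Zfp516, against 224 for all peaks. Per kilobase of peak, however, the medians were 287, 245 and 277 reads, close to the 270.0 of all peaks. In 30 of the 83 peaks the mean normalized count was below the median of all peaks, and the range ran from 48.4 to 7679.

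**Figure D1:**
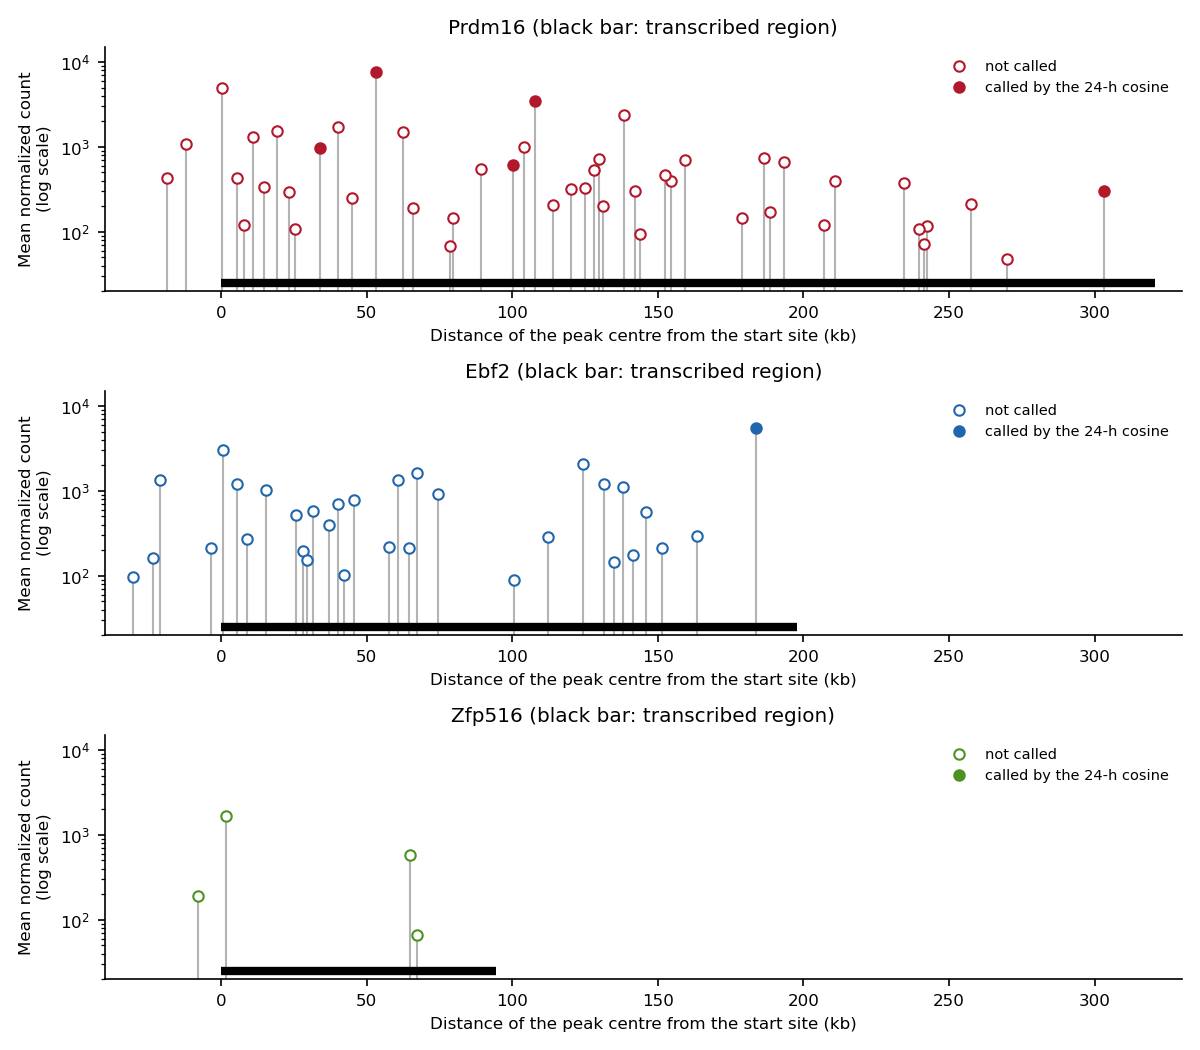
Mean normalized count (log scale) of each of the 83 peaks against the distance of its centre from the gene's start site in kb, with 1 panel per gene and the transcribed region as a black bar. Filled points are the 5 Prdm16 peaks and the 1 Ebf2 peak called by the 24-h cosine. The strongest Prdm16 peak lies 53.3 kb and the strongest Ebf2 peak 184 kb downstream of the start site.

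DR1 elements were looked for because they are the sites PPARγ recognizes. The search used AGGTCANAGGTCA on both strands with up to 2 mismatches among 12 fixed bases, in the 500 bases around each peak centre. It found DR1 in 5 Prdm16, 2 Ebf2 and 1 Zfp516 peak, 8 of 83 (9.64%), compared with 13.5% of the 66059 peaks on assembled chromosomes. Over whole peaks, which are wider here, the share was 33.7%, beside 23.6% of all peaks. A single perfect element was present, in the Prdm16 peak 104 kb into intron 1 (chr4:154531537-154533826) and 1042.5 bases from its centre. It is shown beside 2 elements with 1 mismatch. The first lay in the peak that covers the Prdm16 start site, 1366 bases from its centre and outside the 500 bases searched. The other lay 59.5 bases from the centre of an Ebf2 intron 7 peak (chr14:67298803-67302238). The element with 1 mismatch nearest to a peak centre, 19.5 bases away, lay in the weakest member, in Prdm16 intron 4, and is not shown. The elements shown are given from GRCm38.p6 with 20 bases on either side, 5′ to 3′ on the plus strand, with the element in capitals.

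Prdm16 intron 1 DR1, chr4:154533698-154533750: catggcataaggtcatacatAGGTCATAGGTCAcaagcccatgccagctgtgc
Prdm16 start-site peak DR1, chr4:154635085-154635137: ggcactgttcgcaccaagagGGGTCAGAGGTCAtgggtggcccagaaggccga
Ebf2 intron 7 DR1, chr14:67300435-67300487: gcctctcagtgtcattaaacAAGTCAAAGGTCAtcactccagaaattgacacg

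A palindromic EBF motif (TCCCNNGGGA, no mismatch, both strands alike) was searched in the same windows because EBF2 itself acts in these cells. It was found in 4 of 83 peaks (4.82%), 2 at Prdm16 and 2 at Ebf2, against 3.05% of all peaks. Over whole peaks, which are wider here and give more sequence to search, it was found in 11 (13.3%), against 5.60%. One of the 4 was the Prdm16 peak chr4:154526532-154531334, which held 2 copies 42.5 and 175.5 bases from its centre, and which is the only member called by both tests of rhythm below. The other sequence shown is from an Ebf2 peak of intron 7 with the largest ratio among Ebf2 peaks with a mean of at least 100 (chr14:67258232-67259808). Elements are again in capitals on the plus strand.

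Prdm16 intron 1 EBF, first copy, chr4:154528951-154529000: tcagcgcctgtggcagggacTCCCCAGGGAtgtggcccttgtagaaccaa
Prdm16 intron 1 EBF, second copy, chr4:154529084-154529133: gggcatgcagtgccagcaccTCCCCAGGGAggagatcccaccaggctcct
Ebf2 intron 7 EBF, chr14:67258989-67259038: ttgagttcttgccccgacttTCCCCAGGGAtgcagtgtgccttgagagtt

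C/EBP motifs (TTGCNNAA, both strands) were found in 23 of 83 peaks (27.7%) and 27.8% of all peaks. No member held an NFI motif (TTGGCNNNNNGCCAA, 1 mismatch allowed) within the 500 bases, where 3.02% of all peaks did, and 2 Ebf2 peaks held one over their whole width. The 250 bases before the Prdm16 start site lie inside a PPARγ peak. The set of promoter sequences used here (GRCm38.p6) held 1 of the 3 genes, Prdm16. The Prdm16 promoter on the minus strand is shown 5′ to 3′ with CpG dinucleotides in capitals, since PPARγ binding covered it.

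Prdm16 promoter, chr4:154636874-154637123: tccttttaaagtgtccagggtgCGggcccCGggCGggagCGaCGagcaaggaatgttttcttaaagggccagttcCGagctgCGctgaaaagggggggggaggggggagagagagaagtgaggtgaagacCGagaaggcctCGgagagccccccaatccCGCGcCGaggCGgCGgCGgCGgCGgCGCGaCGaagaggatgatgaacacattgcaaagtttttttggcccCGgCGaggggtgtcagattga

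This stretch had 22 CpG and a GC content of 62.4%, compared with medians of 6 CpG and 52.4% over 32851 promoters of the same length. It held no match to DR1, EBF, NFI or C/EBP motifs, which were found in 3.24%, 0.779%, 0.825% and 9.56% of promoters.

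Next, rhythm was tested peak by peak. JTK-cycle ranks the 8 values of a peak against reference waves with periods of 21 and 24 h. It called 1 of the 83 peaks (1.20%) at an adjusted P under 0.05, where 11.6% of all 66066 peaks were called. A 24-h cosine fitted to the counts with edgeR called 6 (7.23%), where 13.4% of all peaks were called. These were 5 of 47 peaks at Prdm16, 1 of 32 at Ebf2 and 0 of 4 at Zfp516, and the peak called by JTK-cycle was among them. At an unadjusted P under 0.05 the cosine was met by 11, 3 and 1 peaks, 15 of 83 (18.1%), where 31.3% of all peaks met it. After Benjamini-Hochberg adjustment of JTK-cycle over all peaks, 0 peaks of the whole table passed 0.05, the smallest value being 0.0968 by the exact null distribution. With JTK-cycle on 24 h only, 5 members were called (15.0% of all peaks), and leaving out the ZT3 library gave 7 (16.4% of all peaks). Without ZT18 the cosine called 1 member (4.64% of all peaks) and without ZT15 it called 2 (5.65%).

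The spread over the 8 libraries differed between the loci in the median, without a test of the difference. It includes counting error, which is relatively larger where counts are low. Median counts were 379 at Prdm16, 461 at Ebf2, 387 at Zfp516 and 224 over all peaks. The part of counting error in these differences was not tested. The median ratio of highest to lowest normalized count was 1.51 at Prdm16, 1.30 at Ebf2, 1.41 at Zfp516 and 1.52 over all peaks. Likewise, the median coefficient of variation over the 8 libraries was 14.8%, 8.88%, 12.7% and 14.2%. The largest ratio among members was 2.43, in a weak Zfp516 peak, and the smallest 1.14, at Ebf2.

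Prdm16 carried the strongest and widest member. The peak at chr4:154577738-154589493, in intron 1 and 53.3 kb from the start site, spanned 11755 bases with a mean normalized count of 7679. From ZT0 to ZT21 its normalized counts were 7208, 9147, 8753, 9129.9, 8041, 6692, 5728 and 6734. Values were high from ZT3 to ZT12 and low at ZT0 and from ZT15 to ZT21, and the highest exceeded the lowest 1.60-fold (95% counting interval 1.54 to 1.65). The cosine placed the maximum at 6.45 h (edgeR quasi-likelihood, Benjamini-Hochberg adjusted P = 0.00152), and the call was kept in all 8 fits that left out a library. By least squares on log2 counts, the peak-to-trough difference was 0.62 ± 0.08 (SE). The exact JTK-cycle test gave an adjusted P of 0.0826. In bulk tissue, fewer cells of a type and less binding per cell cannot be told apart.

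The only JTK-cycle call was made further into intron 1. The peak at chr4:154526532-154531334, 108 kb from the start site, had a mean of 3511, and its normalized counts from ZT0 onwards were 3248, 4014, 4029, 3803, 3724, 3100.1, 2960.1 and 3212. ZT3 to ZT12 lay above all other times, with a highest-to-lowest ratio of 1.36-fold (95% counting interval 1.30 to 1.43). The adjusted P of the exact JTK-cycle test was 0.00595, with a Benjamini-Hochberg value of 0.128 over all peaks. The cosine gave a maximum at 6.45 h (edgeR, adjusted P = 0.00994) and, by least squares, a log2 peak-to-trough difference of 0.44 ± 0.07 (SE). JTK-cycle kept this call without each of the 8 libraries in turn and lost it with cyclic loess scaling, and the cosine lost it without ZT18.

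At the start site itself, binding of PPARγ to Prdm16 was strong and was not called as rhythmic. The peak chr4:154632595-154640359 covers the start site and had a mean of 4906 over 7764 bases. It read 4319, 5608, 4927, 5039.8, 5229.8, 4911, 4315 and 4899.6 normalized counts from ZT0 to ZT21. ZT3 was highest and ZT18 and ZT0 were lowest, with a highest-to-lowest ratio of 1.30-fold (95% counting interval 1.25 to 1.35) and no call (edgeR cosine, adjusted P = 0.354; exact JTK-cycle, adjusted P = 0.467). The fitted log2 difference was 0.20 ± 0.12 (SE), beside 0.62 ± 0.08 at the intronic peak 53.3 kb away. The difference between the peaks was not tested.

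**Figure D2:**
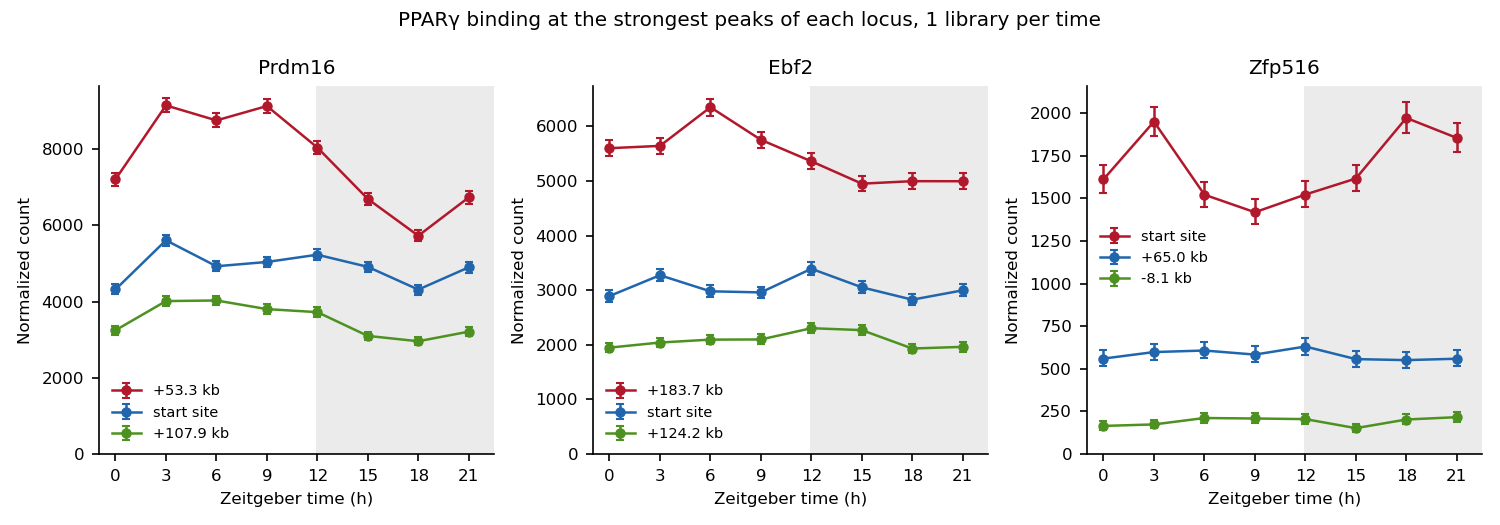
Normalized count against zeitgeber time for the 3 strongest peaks of each gene, which include the peak covering the start site, with 1 library per time point. Bars are 95% Wilson counting intervals and the dark phase is shaded. The Prdm16 peaks at 53.3 and 108 kb fall after ZT12, the Ebf2 peak at 184 kb is highest at ZT6, and the Zfp516 start-site peak is lowest at ZT9.

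Another 3 Prdm16 peaks met the cosine. In intron 1 at 100.2 kb (chr4:154535797-154537537), normalized counts of 549, 896, 615, 789, 567, 543, 470.1 and 473 were measured from ZT0 to ZT21, with ZT3 and ZT9 on either side of a lower ZT6 (edgeR, adjusted P = 0.0307). At 33.9 kb (chr4:154601728-154604276) the values were 974, 943, 1099.6, 1052, 1361, 842, 799.8 and 711, and ZT12 stood highest (adjusted P = 0.0407 by edgeR). The peak most distant from the start site, 303 kb away in intron 12 (chr4:154333173-154334000), had values of 371, 314, 389, 344, 258, 202, 207 and 339 and was low at ZT12, ZT15 and ZT18 (edgeR, adjusted P = 0.0280). All 3 were named because the cosine called them, and fitted maxima lay at 6.06, 8.63 and 3.61 h. None of them was called by JTK-cycle, and each call was lost when some libraries were left out, ZT15 and ZT18 among them. The calls at 100.2 and 33.9 kb were also lost with library totals.

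The peak with the perfect DR1 element, chr4:154531537-154533826, lies next to the JTK-cycle call in intron 1. Its normalized counts from ZT0 to ZT21 were 859.9, 1382, 995, 1153, 971, 789.8, 804 and 964, highest at ZT3 and lowest at ZT15, 1.75-fold (95% counting interval 1.60 to 1.91). It passed neither test (edgeR cosine, adjusted P = 0.0604; exact JTK-cycle, adjusted P = 0.212). The largest ratio at Prdm16 among peaks with a mean of at least 100 was found 66.0 kb from the start site (chr4:154570314-154571518), where the values were 154, 294, 141, 190.0, 186, 218, 163 and 167. Here a single time, ZT3, stood above the rest, 2.09-fold (95% counting interval 1.71 to 2.57) over ZT6, and no rhythm was called (edgeR cosine, adjusted P = 0.876).

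A rise at ZT3 alone or at ZT3 and ZT9 was also seen in the neighbouring peaks of intron 1. At 89.1 kb (chr4:154546347-154549123), which has a DR1 element with 1 mismatch away from its centre, normalized counts were 487, 853, 504, 625, 511, 493, 489.9 and 423 from ZT0 to ZT21, and ZT3 exceeded ZT21 2.02-fold (95% counting interval 1.79 to 2.27). At 62.6 kb (chr4:154572527-154575937) they were 1431, 2046, 1349, 1622, 1426, 1485, 1302 and 1355, again highest at ZT3 with ZT9 next. In intron 2 the strongest peak (chr4:154496206-154500594, mean 2368) read 2396, 2575, 2215, 2634, 2296, 2555, 2094 and 2180.3, with ZT9, ZT3 and ZT15 highest. None of these was called (edgeR cosine, adjusted P of 0.166, 0.298 and 0.553).

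Other Prdm16 peaks did not follow this order, and in 13 of 47 the highest value fell in the dark phase. Weak examples are given here. The peak at chr4:154395306-154395856 in intron 3 had counts of 93.4, 65, 66, 59.4, 43.1, 68.8, 86.3 and 87.3, highest at ZT0 and lowest at ZT12, 2.17-fold (95% counting interval 1.49 to 3.20), with an adjusted P of 0.0826 by the exact JTK-cycle test. The weakest member, in intron 4, read 56.4, 46.8, 37.8, 45.5, 41, 60.1, 52 and 47.2 and was highest at ZT15. Both were below the median of all peaks, and the difference between them and the strong peaks was not tested.

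High counts at ZT3 were common at Prdm16. The highest of the 8 values fell at ZT3 in 21 of 47 peaks (44.7%), compared with 11.9% of all peaks, and in 34 (72.3%) it fell in the light phase from ZT0 to ZT9, compared with 51.1%. The lowest value fell in the dark phase in 33 peaks (70.2% against 47.9%), at ZT18 in 12 (25.5% against 10.3%) and at ZT21 in 11 (23.4% against 6.94%). With library totals in place of TMM factors these counts were 18 at ZT3, 29 in the light phase and 25 in the dark, beside 9.86%, 42.4% and 40.1% of all peaks. Peaks of one locus are not independent, and no test was made of these shares. The ZT3 library was among the deepest, with 33872482 reads in peaks, and peaks that were highest at ZT3 over the whole table had a median GC content of 49.8% against 47.2% for the others. At Prdm16 the values were 54.2% and 50.7%. The part of depth and base composition in the ZT3 values was not tested.

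**Figure D3:**
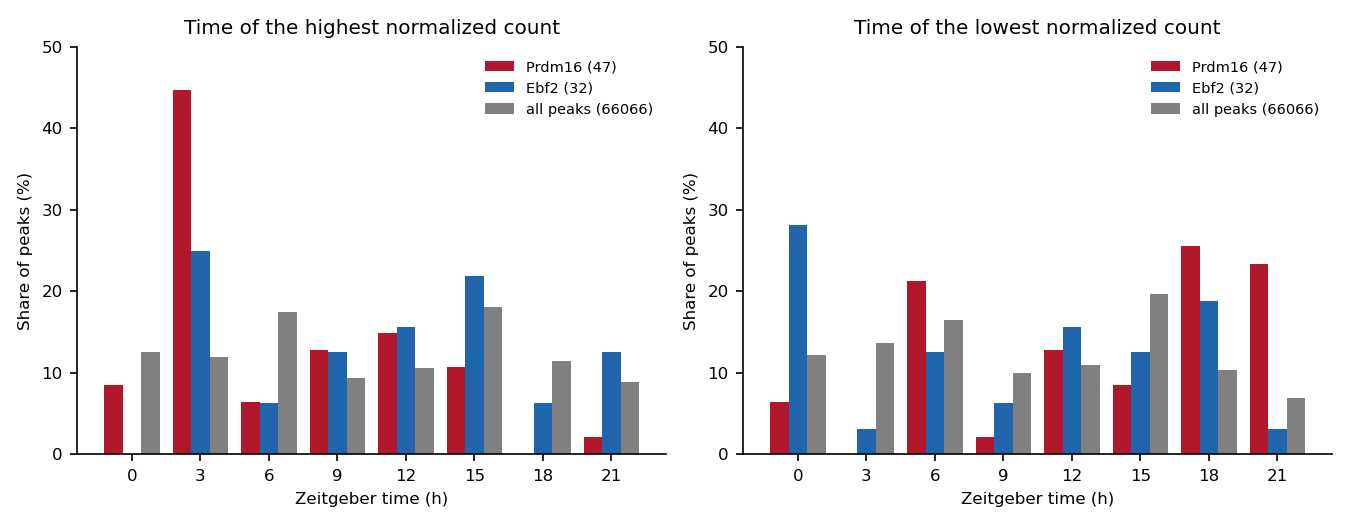
Share of peaks (%) whose highest (left) or lowest (right) normalized count fell at each zeitgeber time, for 47 Prdm16 peaks, 32 Ebf2 peaks and all 66066 peaks. The Prdm16 bar at ZT3 reaches 44.7% against 11.9% of all peaks. Lowest values of Prdm16 peaks fall at ZT6, ZT18 and ZT21 in 21.3%, 25.5% and 23.4%, beside 16.4%, 10.3% and 6.94% of all peaks.

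Binding at Prdm16 was then summed by intron. Over the 20 peaks of intron 1, which made up 70.1% of the binding at the locus, the normalized counts from ZT0 to ZT21 were 25395, 32309.6, 28634, 29991, 29141, 25467, 22512 and 24352, a ratio of 1.44 between ZT3 and ZT18. The 12 peaks of intron 2 summed to 6622, 7491, 6018, 7046, 6546, 6926, 6186 and 6207, where ZT3, ZT9 and ZT15 each stood above both neighbouring times. In intron 3 the sums of 11 peaks stayed between 2938 and 3419.9, with the highest at ZT15. Fitted cosine maxima fell between 3 and 9 h in 15 of 20 peaks of intron 1, 5 of 12 of intron 2 and 0 of 11 of intron 3. With 1 library per time point these differences between introns could not be tested against replicates.

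**Figure D4:**
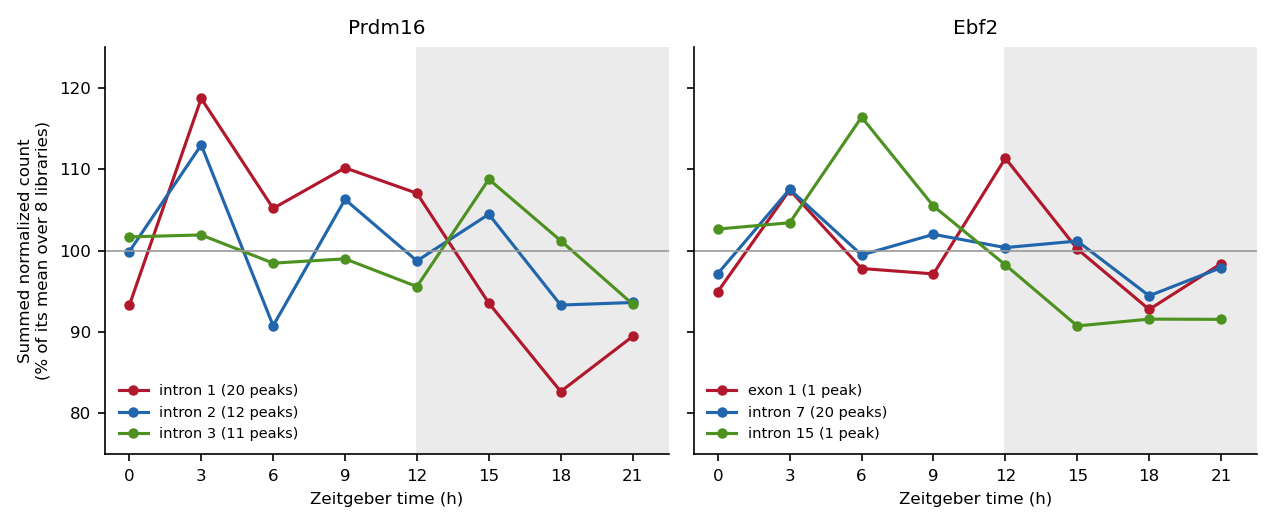
Normalized counts summed over the peaks of an intron or exon, as a percentage of their mean over 8 libraries, against zeitgeber time with the dark phase shaded. Prdm16 intron 1 falls from its highest point at ZT3 to its lowest at ZT18, a ratio of 1.44, whereas intron 3 spans a ratio of 1.16, and the single Ebf2 peak of intron 15 is highest at ZT6.

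At Ebf2 the strongest peak lay near the 3′ end of the gene. This peak, chr14:67413920-67420056 in intron 15, had a mean normalized count of 5458 and counts of 5603, 5645, 6353, 5756, 5362, 4953, 4999 and 4997 from ZT0 to ZT21. Values were highest at ZT6 and lowest at ZT15, with near-equal values at ZT18 and ZT21 and a ratio of 1.28-fold (95% counting interval 1.24 to 1.33). The cosine called it, with a maximum at 5.67 h (edgeR, adjusted P = 0.0303) and, by least squares, a log2 difference of 0.31 ± 0.05 (SE). This call was absent with library totals and without ZT6, ZT9, ZT15, ZT18 or ZT21. The exact JTK-cycle test gave an adjusted P of 0.0826.

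Start-site binding at Ebf2 varied little. The peak at chr14:67231499-67236316 covers the start site and had a mean of 3049, and its values from ZT0 to ZT21 were 2895, 3276, 2981, 2961, 3394, 3055, 2828 and 2999.5. ZT12 and ZT3 were highest and ZT18 lowest, 1.20-fold (95% counting interval 1.14 to 1.26) apart, and no rhythm was called (edgeR cosine, adjusted P = 0.702). The third strongest peak, in intron 7 at 124 kb (chr14:67355465-67359550), read 1949.6, 2043, 2096, 2099, 2306, 2271, 1934 and 1964, again highest at ZT12 and lowest at ZT18 without a call (edgeR cosine, adjusted P = 0.216).

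Intron 7 held 51.2% of Ebf2 binding. Its 20 peaks summed to 13276, 14691, 13588, 13934, 13712, 13822, 12903 and 13375 from ZT0 to ZT21, a ratio of 1.14. Of them, 8 were highest at ZT3, as were 11.9% of all peaks. The DR1-containing peak chr14:67298803-67302238, 67.2 kb from the start site, was one of these, with 1641, 1973, 1466, 1603, 1462, 1494, 1480.0 and 1701 (edgeR cosine, adjusted P = 0.188). The largest ratio among Ebf2 peaks with a mean of at least 100 belonged to the peak shown with its EBF motif, chr14:67258232-67259808, where counts were 503, 533, 586, 515, 656, 509.7, 457 and 424. ZT12 was highest and ZT21 lowest, 1.55-fold (95% counting interval 1.36 to 1.75) apart, and neither test called it (edgeR cosine, adjusted P = 0.128). A peak 112 kb from the start site (chr14:67344635-67346786) went the other way, with 271, 269, 225, 278, 298, 323, 335 and 275, highest at ZT18 and lowest at ZT6 (exact JTK-cycle, adjusted P = 0.0826). It was singled out after its values were seen.

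Near the start of the gene, the single peak of intron 4 (chr14:67236482-67241089) had normalized counts of 1028, 1208, 1045, 1065, 1324, 1412, 1205 and 1222, with ZT12 and ZT15 highest and ZT0 lowest. The steadiest member of all was found in intron 7 (chr14:67292732-67295523), where the counts were 1373, 1356, 1365, 1419.7, 1361, 1240.4, 1269 and 1268, a ratio of 1.14-fold (95% counting interval 1.06 to 1.24). Within intron 7, Ebf2 thus held peaks whose highest value fell at ZT3, ZT12 and ZT18. Neither test called any of the 20 peaks of this intron, and each of these times rests on 1 library.

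Upstream of Ebf2, the peak with the highest density of reads among all members, 937 per kb, lay 20.9 kb before the start site (chr14:67211689-67213135). Its normalized counts were 1174, 1506, 1414, 1437, 1546, 1229, 1199 and 1334 from ZT0 to ZT21, higher from ZT3 to ZT12 than at the other times (edgeR cosine, adjusted P = 0.193). Over all 32 peaks, the lowest value fell at ZT0 in 9 and at ZT18 in 6, and the highest at ZT3 in 8 and at ZT15 in 7. The lowest value fell in the dark phase in 16 of 32 (50.0%) and the highest in the light phase in 14 (43.8%), beside 47.9% and 51.1% of all peaks. With library totals these were 10 and 11, beside 40.1% and 42.4% of all peaks.

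**Figure D5:**
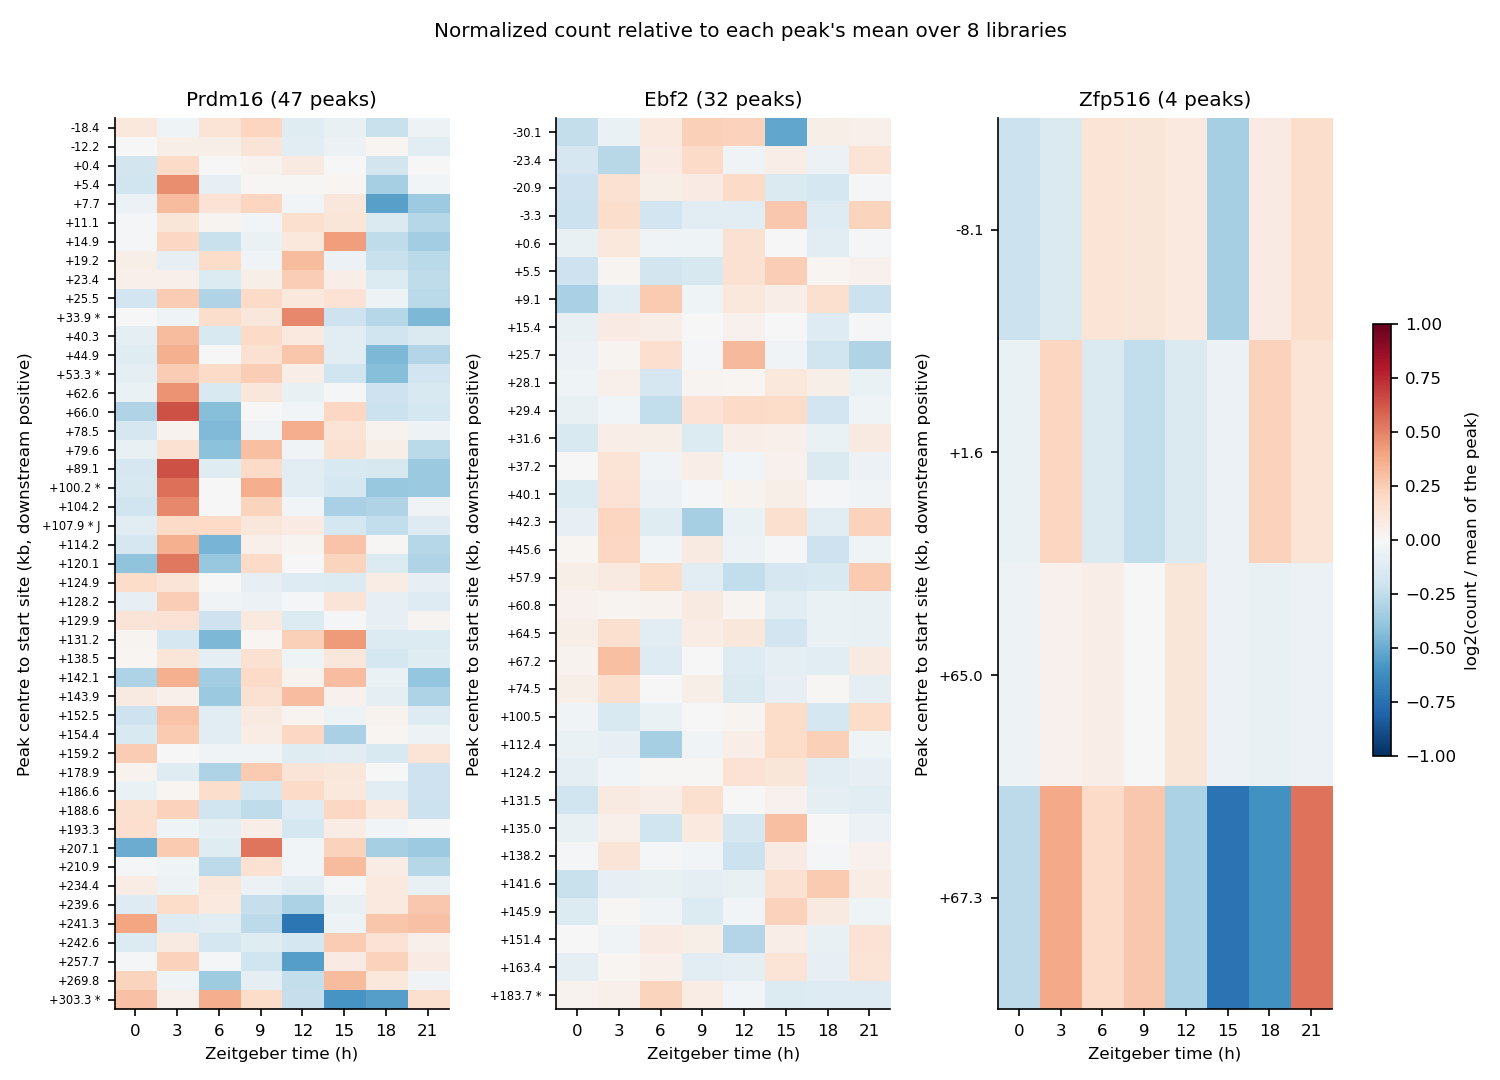
Normalized count of each of the 83 peaks relative to its own mean, as log2 ratio from blue (lower) to red (higher), with zeitgeber time on the horizontal axis and peaks ordered by distance from the start site in kb. An asterisk marks a cosine call and J the JTK-cycle call. Prdm16 peaks between 62.6 and 120 kb are highest at ZT3 in most rows, and Ebf2 rows are paler, with a median coefficient of variation of 8.88% against 14.8% at Prdm16.

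Binding at Zfp516 centred on its start site. The peak chr18:82909347-82915631, which covers the start site and whose centre lies in intron 1, made up 66.7% of the counts of the locus with a mean of 1684. The values from ZT0 to ZT21 were 1612, 1950.4, 1522, 1419, 1523, 1616, 1972 and 1855. ZT18 and ZT3 were highest and ZT9 lowest, 1.39-fold (95% counting interval 1.30 to 1.49) apart, and the fitted maximum lay at 21.4 h, with an unadjusted P of 0.0273 that did not pass adjustment (edgeR, adjusted P = 0.112). Leaving out ZT0 or ZT3 gave a cosine call at this peak.

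The other 3 Zfp516 peaks were weaker. An intron 2 peak at 65.0 kb (chr18:82975476-82976355) read 560.3, 599, 608, 584, 631, 557, 551 and 559, a ratio of 1.14 that was the second smallest of all members. The upstream peak, with its centre at -8.05 kb from the start site (chr18:82902490-82903160) read 165, 174, 212, 209, 205, 152, 203 and 217, with the lowest value at ZT15. The last one, at 67.3 kb in intron 2 (chr18:82977961-82978374), read 55.4, 86, 75.7, 80.1, 53.4, 39.7, 43.7 and 96.5, 2.43-fold (95% counting interval 1.67 to 3.60) between ZT21 and ZT15. Its counts are low, and none of the 3 was called (edgeR cosine, adjusted P between 0.190 and 0.923).

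Summed over each locus, the Prdm16 counts from ZT0 to ZT21 were 37183, 44906, 39769, 42215, 40389, 37522, 33603 and 35298. At Ebf2 the sums were 25758, 28291, 27423, 27091, 27276, 26659, 25188 and 25989, and at Zfp516 2393, 2809, 2417, 2291, 2412, 2366, 2769.7 and 2727. All 3 loci were highest at ZT3. Prdm16 and Ebf2 were lowest at ZT18, with ratios of 1.34 and 1.12, whereas Zfp516 was lowest at ZT9 and had its second highest sum at ZT18, with a ratio of 1.23. Across the 8 libraries, the log2 sums (TMM) of Prdm16 and Ebf2 had a Pearson r of 0.94, and those of Zfp516 had an r of -0.22 with Prdm16 and -0.13 with Ebf2. With library totals in place of TMM factors, Zfp516 was highest at ZT18 and Ebf2 was lowest at ZT0. The correlations are descriptions over libraries shared by all loci. They were taken with TMM factors only and may differ with library totals.

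Among 4348 genes with at least 5 peaks nearest to their start site, the sums most like Prdm16 over the 8 libraries were those of Dmtn, Ccnl1 and Kif16b, with r of 0.98, 0.97 and 0.96. For Ebf2 they were Chdh, Fbp1 and Mgrn1 (0.98, 0.97 and 0.96), and for Zfp516 Foxp1, Nln and Rpl11 (0.93, 0.91 and 0.91). Their ratios of highest to lowest sum ranged from 1.11 for Ccnl1 and Rpl11 to 1.73 for Fbp1, a gluconeogenic enzyme. Such values are found by ranking many genes over few points.

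Assignment to the nearest start site, a common way to annotate peaks, left Prdm16 without a single peak. Of its 47 peaks, 18 were nearest to the start of Gm52688, 10 to Gm13133 and 10 to 5930403L14Rik, which are non-coding RNA genes, 7 to the neighbour Arhgef16, and 1 each to Actrt2 and Prdm16os. At Ebf2 14 of 32 were assigned to Ebf2, and 9 each to Gm6878 and 4930438E09Rik. At Zfp516 it was 1 of 4. Counted this way, the 3 genes had 16 peaks, of which JTK-cycle and the cosine each called 1, the 1 peak assigned to Ebf2 that lay outside its window.

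Genes that act with or against these factors were looked up as well. The share of all genes with a peak was not computed, so having peaks does not set these genes apart. All 25 genes of a list of such partners had PPARγ peaks nearest to their start site, 364 in total, of which JTK-cycle called 36 (9.89%) and the cosine 38 (10.4%), again beside 11.6% and 13.4% of all peaks. Their median mean normalized count was 239 against 224 for all peaks. Some genes had only weak peaks, such as Foxc2 with 1 peak (mean 195) and Bmp7, whose strongest had a mean of 118. The most peaks belonged to Nfia (87), which encodes an NFI factor that opens chromatin at brown fat genes, of which JTK-cycle called 11 and the cosine 9. Its strongest peak had a mean of 5995 and was highest at ZT6 and lowest at ZT15, a ratio of 1.51 (edgeR cosine, adjusted P = 0.00893). Ppargc1a, the coactivator PGC-1α of mitochondrial genes, had 54 peaks with 4 and 7 calls, and its strongest had a mean of 2963 and a ratio of 1.31.

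Ebf1, a paralogue of Ebf2, had 38 peaks with 3 calls by each test. Its strongest peak (mean 4499.7, ratio 1.19) was called by the exact JTK-cycle test (adjusted P = 0.00595) but not by the cosine. Tle3, a corepressor that opposes PRDM16, had 31 peaks with 6 and 4 calls, and Zfp423, which restrains EBF2 in white fat cells, had 31 with 4 and 4. Their strongest peaks had small ratios of highest to lowest count, 1.14 and 1.13. Mecom, which encodes the closest relative of PRDM16, had 25 peaks with 1 call by each test, and its strongest peak had a ratio of 1.24.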

How the data were processed

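PPARγ ChIP-sequencing libraries of iBAT were prepared by the authors with 8 µg of antibody, 1 library per time point, and an input library was not used here. The authors aligned reads with BWA-MEM (0.7.17), called peaks with MACS2 (2.1.2), kept those found in at least 6 of the 8 libraries and used HTSeq (1.99.2) for the reads in each. The deposited values used here are these raw counts (66066 peaks, mm10). How duplicate reads were treated is not given in the sources used here.

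Counts were scaled by TMM factors (0.959 to 1.04; edgeR 4.0.16, R 4.3.3) to the geometric mean library, without a filter on low counts. JTK-cycle was written anew in R (periods 21 and 24 h, 15 references per peak, exact null, Bonferroni per peak), and its rule for ties was chosen after comparison with a table of the study. Calls by the authors were not used as results. The cosine was fitted with the quasi-likelihood test of edgeR on all peaks, with a common dispersion of 0.0116 and 5 residual degrees of freedom, so that departures from the cosine served as the spread, and P values were adjusted by Benjamini-Hochberg. The log2 peak-to-trough differences and their SE came from a separate least-squares fit of the same cosine to log2 normalized counts. Counting intervals of single normalized counts, drawn as bars, are 95% Wilson intervals. Those of a highest-to-lowest ratio are exact 95% binomial intervals on the raw counts of the highest and lowest library, converted to a ratio and scaled. Places, promoters and sequences come from RefSeq on GRCm38.p6 (45756 curated transcripts, longest per gene), which is mm10, and 66059 peaks lay on its assembled chromosomes. Python 3.11.15 was used for annotation.

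Members, gene lists and motifs were chosen with earlier results of these data known. The peaks named by rule were, at each locus, the one at the start site, the 3 strongest, those called by JTK-cycle and the one with the largest ratio of highest to lowest count among peaks with a mean of at least 100. All other peaks given with values, including the cosine calls, the peaks with motifs and those picked for an unusual time course, were chosen after their values were seen. Alternatives were library totals, DESeq2 (1.42.0) size factors and likelihood ratio test, cyclic loess (limma 3.58.1), 24 h only, a threshold of 0.01, a mean count of at least 100, leaving out each library, and assignment to the nearest start site.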

Additional observations from a re-analysis of the deposited data

How the results depend on the processing

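The number of members called depended on the settings. The share of all peaks called is given in brackets. JTK-cycle, with 1 call of 83 (11.6%), gave 2 with library totals (12.3%), 2 with DESeq2 size factors (11.7%) and 5 with a 24-h period only (15.0%). Leaving out 1 library at a time gave 1 to 7 calls, with 7 without ZT3 (16.4%), 5 without ZT9 (13.3%) or ZT18 (11.4%), 4 without ZT6 (11.8%) and 2 without ZT0 (13.1%), ZT12 (13.7%) or ZT21 (11.3%), and the called Prdm16 peak was among them each time. Cyclic loess also gave 1 call, of another peak. The cosine, with 6 calls (13.4%), gave 2 at a threshold of 0.01 (3.40%) and 1 of 16 peaks when peaks were assigned by nearest start site. Without 1 library it gave 1 (without ZT18, 4.64%) to 10 (without ZT3, 16.96%), with 2 without ZT15 (5.65%). Library totals gave 4 (13.5%), DESeq2 size factors 6 (13.1%) and the DESeq2 likelihood ratio test 7 (15.4%), of which 3, 6 and 6 were among the 6. With library totals the ratios of highest to lowest locus sum were 1.27 at Prdm16, 1.08 at Ebf2 and 1.28 at Zfp516. The other scalings of locus sums and of the times of highest and lowest counts were chosen after seeing the data. The causes were not tested. No paired analysis was possible because each time point had 1 library. In the weakest Zfp516 peak the counting interval of the ratio of 2.43 ran from 1.67 to 3.60. What size of change could be detected at that depth was not computed.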

Other observations

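At many member peaks the light-phase values alternated. ZT3 and ZT9 were both above ZT0 and ZT6 in 24 of 47 Prdm16 peaks (51.1%), 11 of 32 Ebf2 peaks (34.4%) and 1 of 4 Zfp516 peaks, compared with 10951 of 66066 peaks (16.6%). The counts at Prdm16 were 22 with library totals, 22 with DESeq2 size factors and 23 with cyclic loess, and at Ebf2 12, 11 and 12. Over all peaks, those with this order had a median GC content of 49.2% against 47.2% for the rest. This order was picked after the values were seen, each time point was 1 library, and its cause was not tested.

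The fitted time of the cosine lay between 3 and 9 h in 23 of 47 Prdm16 peaks (48.9%), compared with 29.2% of all peaks, and between 15 and 21 h in 2 (4.26%), compared with 28.7%. At Ebf2 11 of 32 (34.4%) lay between 3 and 9 h. Peaks of 1 locus share their libraries and are not independent.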
